A study of Mus musculus with 16 samples.

Results

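Closely flanked loci are short protein-coding genes with another protein-coding gene close by on either side. They were chosen by position alone, from the locus given for each gene in the deposited tables. A gene was taken if it was protein-coding, lay on chromosomes 1 to 19, spanned under 20000 bp, overlapped no other protein-coding locus, and had a gap of at most 2000 bp to the nearest protein-coding locus on each side. This gave 533 of 23996 genes, or 533 of the 19247 autosomal protein-coding genes, and no expression value entered the choice. Of 9132 short loci that overlapped none, 1997 had a close neighbour on 1 side only and 6602 on neither side. The closely flanked loci spanned 407 to 19969 bp with a median of 6141 bp, and the median gap was 564.5 bp.

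RNA-Seq had been done on cells from C57BL/6 mice with exon 1 of Ssu72 flanked by loxP (Ssu72 f/f), infected with an adenovirus for Cre recombinase (Ad-Cre, labelled Ssu72 KO) or for luciferase (Ad-Luc, labelled WT), so that all groups carried the floxed gene and had been through adenoviral infection with a transduction peptide. The groups were Ad-Cre and Ad-Luc MEFs from embryonic day 13.5 (3 samples each), Ad-Cre and Ad-Luc hepatocytes (3 each, from mice of 6 weeks per the labels), and Ad-Cre and Ad-Luc ES cells from the inner cell mass (2 each). In the ES table the names of the Ad-Luc samples have FS where those of the Ad-Cre samples have ES, and this Ad-Luc group was read as the ES control. Each table gives 1 pooled value per gene and group in FPKM (fragments mapped to a gene, scaled to its transcript length and to all mapped fragments), so no SD, n or test across samples stands beside any value here, the depth per sample is unknown, and every comparison is a description of these pooled values.

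Neighbouring genes can lie in 3 arrangements. Where both are read from the same strand, the 3′ end of the first gene faces the start of the second, and termination of the first transcript comes before initiation of the second. Divergent neighbours start next to each other and point apart, often with a CG-rich stretch between the starts, whereas convergent neighbours end towards each other. The Ssu72 protein removes phosphates from the tail of the largest subunit of RNA polymerase II, and in yeast it is part of the cleavage and polyadenylation factor that acts at the 3′ end of genes. The direction of the neighbours was not used to choose the loci.

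Ssu72 itself, which is no closely flanked locus, had 3.69 FPKM in Ad-Cre MEFs and 22.7 FPKM in Ad-Luc MEFs, 5.12 and 26.0 FPKM in Ad-Cre and Ad-Luc hepatocytes, and 44.7 and 99.2 FPKM in Ad-Cre and Ad-Luc ES cells. All 6 markers of each cell type reached 1 FPKM in its own cells. The summed fibroblast markers were 6199 FPKM in Ad-Cre MEFs and 12358 FPKM in Ad-Luc MEFs, with Twist1 the only one of the 6 that was not lower. The summed hepatocyte markers were 4868 and 5674 FPKM in Ad-Cre and Ad-Luc hepatocytes, and most of this sum was Alb (4647 and 5207 FPKM). All 6 were lower in Ad-Cre hepatocytes, with wider gaps for Ttr (32.6 and 96.9 FPKM), Apoa1 (113 and 247 FPKM) and Serpina1a (32.9 and 57.8 FPKM). In a pool of cells, fewer cells of a type and less RNA per cell cannot be told apart. Markers of other cell types also differed. The 4 macrophage markers found in the tables summed to 139 FPKM in Ad-Cre hepatocytes and 230.3 FPKM in Ad-Luc hepatocytes, most of it Cd14. Clec4f was near 0 in both (0.013 and 0.015 FPKM), and Csf1r went the other way (0.81 and 0.43 FPKM). In Ad-Cre and Ad-Luc MEFs the macrophage sums were 35.7 and 27.0 FPKM. The 3 epithelial markers summed to 35.5 and 12.2 FPKM in Ad-Cre and Ad-Luc hepatocytes and to 16.3 and 8.84 FPKM in Ad-Cre and Ad-Luc MEFs, mostly Krt19 in both. Krt7 went the other way in MEFs (1.30 and 1.89 FPKM in Ad-Cre and Ad-Luc cells). The 4 endothelial markers summed to 8.53 and 4.65 FPKM in Ad-Cre and Ad-Luc MEFs, mostly Kdr, with Tek the other way (0.317 and 0.470 FPKM), and to 18.0 and 12.3 FPKM in Ad-Cre and Ad-Luc hepatocytes. In ES cells the sums of these 3 lists were within 1.5-fold between the groups. Their part in the results was not tested.

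The reference annotation gave a strand for all but 2 of the 533 loci. A same-strand gene lay just upstream of 283 loci (53.1%) and a divergent gene upstream of 246 (46.2%). Downstream, 333 loci (62.5%) had a convergent neighbour and 196 (36.8%) a same-strand neighbour. The commonest arrangements were divergent upstream with convergent downstream (171 loci) and same-strand upstream with convergent downstream (162 loci). Chromosomes 11, 7 and 17 held 79, 76 and 60 of the loci, and 6.07% of the protein-coding genes of chromosome 17 were closely flanked, against 0.672% of those of chromosome 12. Many were each other's neighbours, with 284 loci standing in 110 runs of at least 2, the longest of 7 genes.

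To show what separates such genes, the whole gap is printed for 8 of the loci named below. These have a RefSeq start at the edge of the deposited locus and a gap to the upstream gene of at most 250 bases. For same-strand genes a lower limit, just under the gap of 1110017D15Rik, was set as well. The build is GRCm38.p6, the same sequence as mm10. Bases run 5′ to 3′ on the strand of the named gene, with CG pairs in capitals. First come 4 loci with a same-strand gene upstream, which are 1110017D15Rik after Fam219a, Nat14 after Zfp628, Lcat after Slc12a4 and Ufsp1 after Ache:
1110017D15Rik, chr4:41517334-41517436, minus strand: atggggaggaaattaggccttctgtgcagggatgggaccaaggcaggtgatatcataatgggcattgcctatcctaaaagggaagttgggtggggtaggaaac
Nat14, chr7:4922004-4922250, plus strand: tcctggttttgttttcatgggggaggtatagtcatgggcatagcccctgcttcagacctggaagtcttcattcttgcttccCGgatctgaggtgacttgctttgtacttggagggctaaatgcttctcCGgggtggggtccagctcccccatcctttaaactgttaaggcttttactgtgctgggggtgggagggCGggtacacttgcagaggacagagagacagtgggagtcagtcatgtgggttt
Lcat, chr8:105943403-105943589, minus strand: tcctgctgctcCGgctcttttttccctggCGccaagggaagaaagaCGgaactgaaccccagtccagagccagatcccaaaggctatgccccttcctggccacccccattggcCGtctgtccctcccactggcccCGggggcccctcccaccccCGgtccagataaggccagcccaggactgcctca
Ufsp1, chr5:137294467-137294668, plus strand: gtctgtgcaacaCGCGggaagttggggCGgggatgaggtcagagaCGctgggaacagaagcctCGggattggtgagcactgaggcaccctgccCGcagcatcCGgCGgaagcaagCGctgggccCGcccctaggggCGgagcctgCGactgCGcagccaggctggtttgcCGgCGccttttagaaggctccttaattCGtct
Then 4 gaps between divergent genes are shown, which are those of Noxo1 and Gfer, Il11 and Tmem190, Rpl7a and Med22, and Tap1 and Psmb9:
Noxo1, chr17:24696157-24696233, plus strand: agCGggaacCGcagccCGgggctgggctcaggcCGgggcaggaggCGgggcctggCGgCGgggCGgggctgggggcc
Il11, chr7:4782858-4782939, minus strand: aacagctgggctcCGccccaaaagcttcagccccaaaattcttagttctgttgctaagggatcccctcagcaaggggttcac
Rpl7a, chr2:26910643-26910806, plus strand: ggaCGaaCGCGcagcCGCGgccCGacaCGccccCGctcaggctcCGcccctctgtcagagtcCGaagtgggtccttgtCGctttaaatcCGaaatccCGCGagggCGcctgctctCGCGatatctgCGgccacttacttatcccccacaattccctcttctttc
Tap1, chr17:34187331-34187555, plus strand: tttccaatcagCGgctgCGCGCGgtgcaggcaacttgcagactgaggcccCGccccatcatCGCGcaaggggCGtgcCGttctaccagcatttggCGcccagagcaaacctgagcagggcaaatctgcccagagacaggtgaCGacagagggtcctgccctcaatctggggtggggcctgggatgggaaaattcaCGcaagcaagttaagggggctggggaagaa
Ager and Proca1, which stand among the loci with the highest ratios in MEFs, are shown with the 250 bases before the start, all of which lie in the gap to Pbx2 and Rab34:
Ager, chr17:34597600-34597849, plus strand: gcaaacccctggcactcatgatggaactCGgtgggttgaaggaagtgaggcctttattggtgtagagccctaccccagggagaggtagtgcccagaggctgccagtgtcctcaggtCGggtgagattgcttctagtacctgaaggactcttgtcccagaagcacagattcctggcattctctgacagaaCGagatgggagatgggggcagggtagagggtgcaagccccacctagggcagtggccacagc
Proca1, chr11:78193142-78193391, plus strand: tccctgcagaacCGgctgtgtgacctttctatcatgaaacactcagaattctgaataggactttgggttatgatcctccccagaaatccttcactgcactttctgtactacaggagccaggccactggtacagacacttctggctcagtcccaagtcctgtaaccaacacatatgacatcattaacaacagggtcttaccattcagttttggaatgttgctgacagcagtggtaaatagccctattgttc

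The gap before 1110017D15Rik held no CG pair in 103 bases and that before Nat14 held 3 in 247, whereas the gap of Rpl7a and Med22 held 18 in 164 bases and that of Noxo1 and Gfer 8 in 77. Ager and Proca1 had 3 and 1 CG pairs in 250 bases. Il11, a cytokine of the interleukin 6 family, stood apart from the other divergent loci shown, with 1 CG pair in 82 bases, and Ufsp1, which encodes a protease of the ubiquitin-like protein UFM1, from the other same-strand loci, with 16 in 202 bases.

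Over whole promoter windows of 300 bases (250 before and 50 after the RefSeq start, matched for 416 of the 533 loci and for 12822 other autosomal protein-coding genes), closely flanked loci had a median of 20 CG pairs and other genes a median of 15. Loci with a divergent gene upstream had a median of 23 and those with a same-strand gene upstream a median of 17. GGGCGG, the core of the GC box, stood on either strand in 67.1% of the windows of closely flanked loci and 49.8% of the other windows. CCGGAAG, a core bound by ETS factors, stood in 24.0% and 12.4%, TATAAA in 6.97% and 13.3%, and CCAAT in 38.5% and 38.6%. The other windows take in many genes of low level. Among other genes at 1 FPKM or more in either MEF group, 7028 not higher in Ad-Cre cells had a median of 22 CG pairs. Their windows held GGGCGG in 68.8%, CCGGAAG in 19.3% and TATAAA in 6.62%. For the 525 that were higher these values were 16, 54.3%, 12.4% and 9.33%. The CG, GGGCGG and TATAAA contrasts were thus not particular to closely flanked loci. Such matches describe the letters only, and a match of 1 motif may share bases with another.

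A locus entered a comparison in a cell type when either group had at least 1 FPKM. This held for 460 of the 533 loci in MEFs, for 454 in hepatocytes, for 465 in ES cells, for 423 in all 3 cell types, and for 34 in none, such as Prm3 (a protamine of sperm), Tas2r105 (a bitter taste receptor) and Ifnz (an interferon). In MEFs 432 loci reached 1 FPKM in both groups, 21 in Ad-Cre cells only and 7 in Ad-Luc cells only. The same numbers were 438, 15 and 1 for hepatocytes, then 453, 9 and 3 for ES cells. A locus that entered through a single group had to lean towards that group, so the main counts below are given again for loci at 1 FPKM in both groups. The median level (mean of both groups) was 15.3 FPKM (MEFs), 22.0 FPKM (hepatocytes) and 19.4 FPKM (ES cells), against 10.8, 12.2 and 11.4 FPKM for all other autosomal protein-coding genes.

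**Figure D1:**
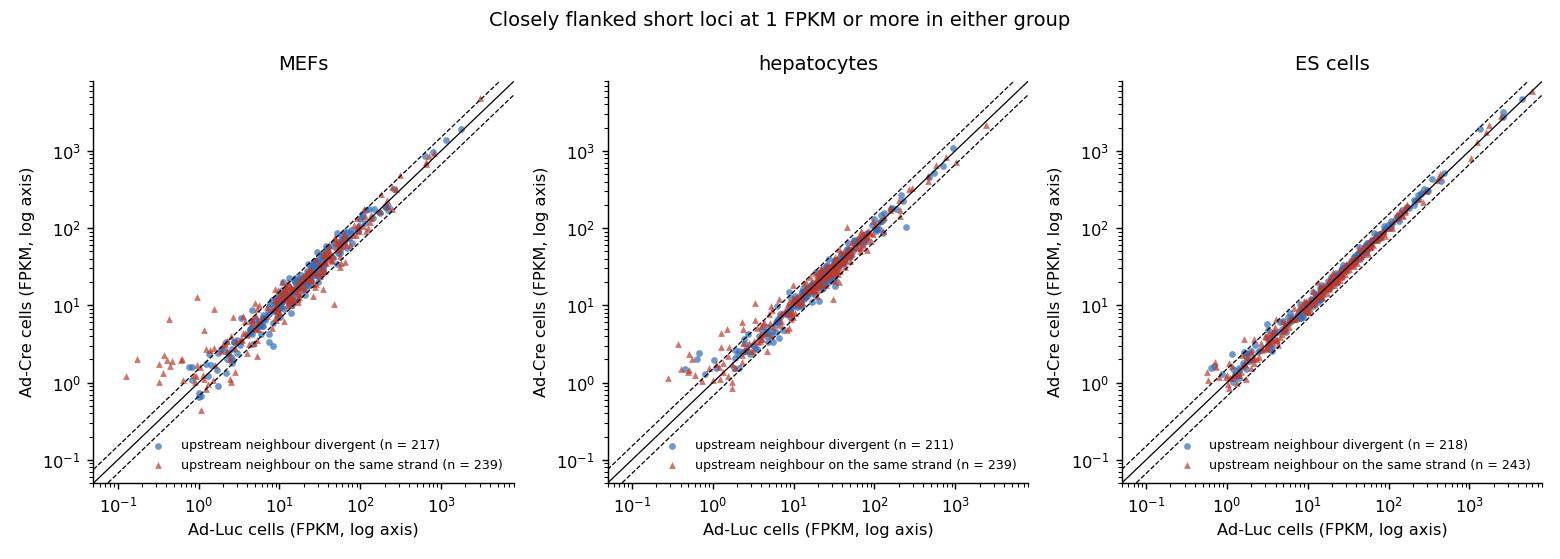
Closely flanked loci at 1 FPKM or more in either group, with the Ad-Cre value on the y axis and the Ad-Luc value on the x axis (FPKM, log axes), 1 panel per cell type; triangles have a same-strand upstream neighbour, circles a divergent one, the solid line marks equal values and the dashed lines 1.5-fold. The points far above the upper dashed line in MEFs, such as Matk at 6.68 FPKM in Ad-Cre and 0.43 FPKM in Ad-Luc cells, are mostly triangles of low Ad-Luc level, and 42 of the 53 higher loci are triangles.

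In MEFs 53 of the 460 closely flanked loci were higher in Ad-Cre than in Ad-Luc cells past 1.5-fold, or 11.5% with an exact (Clopper-Pearson) 95% interval of 8.75 to 14.8%. The background over all genes of the table at this level was 8.43%, and 7.66% over its autosomal protein-coding genes. Such intervals and shares count loci as if they were independent, which neighbours are not, and hold no spread between samples. Since the share varied with level, the other autosomal protein-coding genes were weighted to the same bins of level, which gave 6.88%. Lower past 1.5-fold were 26 loci, or 5.65% (3.73 to 8.17%), against a background of 8.85% (8.47% of autosomal protein-coding genes) and 8.35% for others of equal level. The median log2 ratio of Ad-Cre over Ad-Luc was 0.12 for closely flanked loci and 0.03 for the others. Among loci at 1 FPKM in both groups, 36 of 432 (8.33%, 5.90 to 11.4%) were higher, against 5.24% of the other genes. The excess of 4.64 points over others of equal level was 2.38 points (-0.01 to 5.48) at a minimum of 5 FPKM and 2.58 points (-0.95 to 7.17) at a gap limit of 1000 bp, both with intervals that reach 0.

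In hepatocytes and ES cells the shares of higher loci lay near the background. In hepatocytes 33 of 454 loci (7.27%, 5.06 to 10.1%) were higher, with a background of 6.55% over all genes (6.07% of autosomal protein-coding genes) and 5.02% for others of equal level, and 16 (3.52%) were lower, with a background of 5.91% (5.54%) and 5.17% for others of equal level. In ES cells 14 of 465 loci (3.01%, 1.66 to 5.0%) were higher, with a background of 2.39% (1.87%) and 1.51% for others of equal level. Il18bp alone was lower there, 0.215% of the loci, against a background of 0.845% (0.535%). At 1 FPKM in both groups, 20 of 438 loci (4.57%, 2.81 to 6.96%) were higher in hepatocytes and 8 of 453 (1.77%, 0.77 to 3.45%) in ES cells, against 4.13% and 1.19% of the other genes. Both of these intervals hold the share of the other genes. The wider sets above have intervals that hold the background over all genes and lie just above the share of others of equal level.

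Short loci with wider gaps gave shares close to these. In MEFs 11.0% of short loci with 1 close neighbour (162 of 1473) and 11.0% of those with none (279 of 2543) were higher, beside 11.5% of the closely flanked loci. Only where both gaps were 50000 bp or more did the share drop, to 6.44% (17 of 264), while 14.4% of those isolated loci were lower. Hepatocytes showed no such order, with 7.27% of closely flanked loci, 6.50% with 1 close neighbour, 8.28% with none and 11.7% of the isolated loci higher. The shares in ES cells were 3.01%, 2.44%, 2.73% and 3.30%. Against short loci of equal level, which gave 9.59% (MEFs), 6.06% (hepatocytes) and 2.10% (ES cells), the closely flanked loci stood 1.93, 1.20 and 0.91 percentage points above, and each of these short-locus shares lies within the interval of the closely flanked loci. At 1 FPKM in both groups, 8.33% of closely flanked loci and 7.38% of other short loci were higher in MEFs and 1.77% and 1.68% in ES cells, whereas in hepatocytes the order turned, with 4.57% and 5.09%.

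The direction of the upstream neighbour divided the closely flanked loci in MEFs, and less firmly in hepatocytes. In MEFs 42 of 239 loci with a same-strand gene upstream (17.6%, 12.97 to 23.0%) were higher in Ad-Cre cells, and 11 of 217 with a divergent gene upstream (5.07%, 2.56 to 8.89%). Other genes of equal level gave 7.38% for the first set and 6.40% for the second. In hepatocytes the counts were 24 of 239 (10.04%, 6.54 to 14.6%) and 9 of 211 (4.27%, 1.97 to 7.94%), against 5.80% and 4.17% for others of equal level. Here the intervals of both sets overlap, and the interval of their difference (5.78 points) reached 0 at a minimum of 5 FPKM, where the Ad-Luc value set the level, and at a gap limit of 1000 bp. In ES cells they were 9 of 243 (3.70%, 1.71 to 6.91%) and 5 of 218 (2.29%, 0.75 to 5.27%), with intervals that overlap widely. Among loci at 1 FPKM in both groups the shares were 12.4% (27 of 218) and 4.29% (9 of 210) for MEFs, 6.61% and 2.42% for hepatocytes, and 2.14% and 1.40% for ES cells. Lower in MEFs were 6.69% of same-strand and 4.61% of divergent loci.

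**Figure D2:**
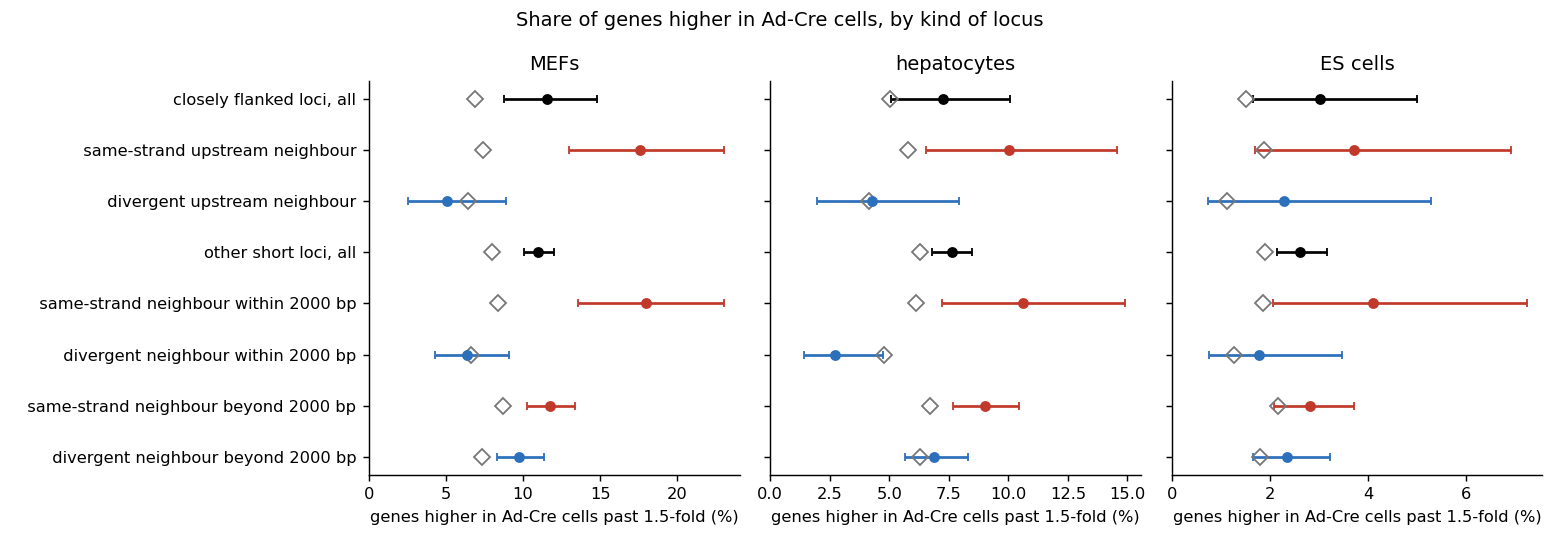
Percent of genes higher in Ad-Cre cells past 1.5-fold (x axis), for closely flanked loci and other short loci by the direction and distance of the upstream neighbour (rows), 1 panel per cell type; dots are shares with exact 95% intervals and open diamonds the share of other autosomal protein-coding genes weighted to the same levels. In MEFs the loci with a same-strand neighbour within 2000 bp stand at 17.6% (closely flanked) and 17.9% (other short loci), and those with a divergent neighbour at 5.07% and 6.38%.

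The same contrast held for other short loci with a close upstream gene, and so was not particular to closely flanked loci. Among other short loci, 49 of 273 with a same-strand gene within 2000 bp upstream (17.9%) were higher in MEFs and 28 of 439 with a divergent gene within that distance (6.38%). The values were 10.6% and 2.73% for hepatocytes, then 4.10% and 1.78% for ES cells. Where the upstream gene was farther than 2000 bp, the shares lay closer together, at 11.8% and 9.75% in MEFs and 9.0% and 6.89% in hepatocytes. Within the closely flanked loci the share in MEFs rose slightly with the width of the same-strand gap, with intervals that overlap widely. It was 15.5% of 84 loci at gaps to 500 bp, 18.3% of 71 above 500 and to 1000 bp, and 19.0% of 84 above 1000 and to 2000 bp. Expression of the same-strand upstream gene gave 18.5% (31 of 168) where it had at least 5 FPKM in Ad-Luc MEFs and 15.5% (11 of 71) where it had less, with overlapping intervals. Other short loci with a same-strand gene within 2000 bp differed more. In MEFs 43 of 176 (24.4%) were higher where that gene had at least 5 FPKM, beside 49 of 273 (17.9%) over all of them. The hepatocyte values were 27 of 187 (14.4%) and 29 of 273 (10.6%).

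The share also varied with level. Of loci with a mean level of 1 to 2 FPKM in MEFs, 11 of 21 with a same-strand upstream gene were higher, 3 of 9 with a divergent one and 18.1% of other genes. Between 4 and 8 FPKM the counts were 8 of 25 and 2 of 29, with 6.00% of other genes. From 8 to 16 FPKM they were 3 of 53 and 1 of 51, near the 3.43% of other genes. In hepatocytes the bin from 4 to 8 FPKM had 6 of 22 and 0 of 20, while the bin from 1 to 2 FPKM had 5 of 16 and 4 of 8. In ES cells the bin from 1 to 2 FPKM had 3 of 22 same-strand and 3 of 18 divergent loci, that from 2 to 4 FPKM 2 of 30 and 1 of 15, and that from 4 to 8 FPKM 1 of 23 and 1 of 21, so that in these bins the same-strand share was not above the divergent one.

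**Figure D3:**
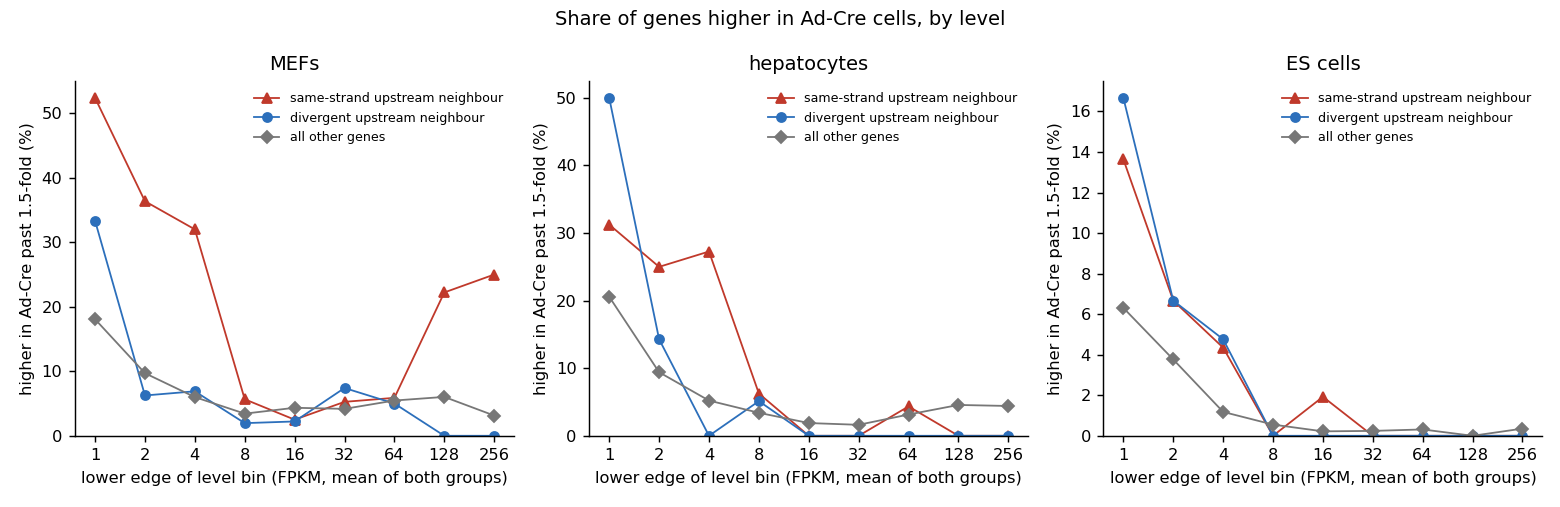
Percent of loci higher in Ad-Cre cells past 1.5-fold (y axis, own scale in each panel) by bin of mean level (x axis, lower edge of each bin in FPKM), for closely flanked loci with a same-strand or a divergent upstream neighbour and for all other autosomal protein-coding genes. Same-strand loci stand above other genes below 8 FPKM in MEFs, with 52.4% against 18.1% from 1 to 2 FPKM, and the 2 highest bins of MEFs rest on 9 and 8 same-strand loci, of which 2 each were higher.

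Of the 8 highest ratios in MEFs at 5 FPKM, Matk, Dqx1, Ager, Aoc2, Rhbdl1 and Doc2g had a same-strand gene upstream, and Il11 and Apobr a divergent one. Proca1, Gnb3 and 1110017D15Rik, given below, were named by a rule that asked for a same-strand upstream gene. Matk, Dqx1, Proca1, Gnb3 and 1110017D15Rik reached 1 FPKM in Ad-Cre MEFs only, so they had to lean that way. Matk, a kinase that restrains Src family kinases, lies on chromosome 10 from 81252935 to 81262981, 811 bp after Zfr2. It had 6.68 FPKM in Ad-Cre MEFs and 0.43 FPKM in Ad-Luc MEFs (log2 ratio 3.96), and 3.20 and 0.37 FPKM in Ad-Cre and Ad-Luc hepatocytes (3.11). Both ES groups had 2.15 FPKM. Zfr2 was higher too, with 5.52 and 1.79 FPKM in Ad-Cre and Ad-Luc MEFs (1.62) and 3.04 and 0.97 FPKM in hepatocytes (1.64), while Mrpl54 downstream had 69.3 and 62.6 FPKM in MEFs.

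Dqx1, a member of the DEAQ-box family of RNA-dependent ATPases, starts 161 bp after the end of Aup1 on chromosome 6 (83057844 to 83067219). It had 12.8 FPKM in Ad-Cre MEFs and 0.95 FPKM in Ad-Luc MEFs (3.74), 10.6 and 3.36 FPKM in Ad-Cre and Ad-Luc hepatocytes (1.66), and 3.70 and 1.63 FPKM in Ad-Cre and Ad-Luc ES cells (1.19). Dqx1 was thus higher in every cell type, with the highest ratio in MEFs and the lowest in ES cells. Aup1, a protein of lipid droplets and the endoplasmic reticulum, stayed near equal, with 104.9 and 97.7 FPKM in MEFs (0.10), 123.6 and 119 FPKM in hepatocytes (0.05) and 39.3 and 44.2 FPKM in ES cells (-0.17).

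Ager, the receptor for advanced glycation end products, lies in the major histocompatibility region of chromosome 17 (34597850 to 34600937), 508 bp after Pbx2 and 161 bp from the convergent gene Rnf5. It had 9.03 FPKM in Ad-Cre MEFs and 1.53 FPKM in Ad-Luc MEFs (2.56), and 6.04 and 2.30 FPKM in Ad-Cre and Ad-Luc hepatocytes (1.39). In ES cells it had 2.24 and 1.52 FPKM, within 1.5-fold. Pbx2, a homeodomain transcription factor, had 11.2 and 9.68 FPKM in MEFs (0.21), and Rnf5, a ubiquitin ligase, 12.03 and 14.3 FPKM (-0.25). Ager therefore reached nearly the level of its neighbours in Ad-Cre MEFs and was far below them in Ad-Luc MEFs.

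Proca1 (chromosome 11, 78193392 to 78205763) followed Rab34, a small GTPase of cilia, after 1198 bp. Its values were 2.05 FPKM in Ad-Cre MEFs and 0.17 FPKM in Ad-Luc MEFs (3.56) and 1.25 and 0.61 FPKM in hepatocytes (1.03), while Rab34 had 83.2 and 84.9 FPKM in MEFs (-0.03). Gnb3, a G protein subunit of cone photoreceptors, followed Leprel2, a collagen hydroxylase, after 819 bp, and had 1.23 FPKM in Ad-Cre MEFs and 0.13 FPKM in Ad-Luc MEFs (3.28), with 105.3 and 108.3 FPKM for Leprel2 (-0.04). In ES cells and hepatocytes Gnb3 was below 0.1 FPKM in both groups. There Leprel2 itself, at a far lower level than in MEFs, was higher in Ad-Cre cells, with 6.54 and 3.31 FPKM in hepatocytes (0.98) and 3.62 and 2.14 FPKM in ES cells (0.76). 1110017D15Rik, whose gap to Fam219a is printed above, had 2.26 FPKM in Ad-Cre MEFs and 0.37 FPKM in Ad-Luc MEFs (2.61), and Fam219a 9.34 and 10.5 FPKM (-0.16).

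**Figure D4:**
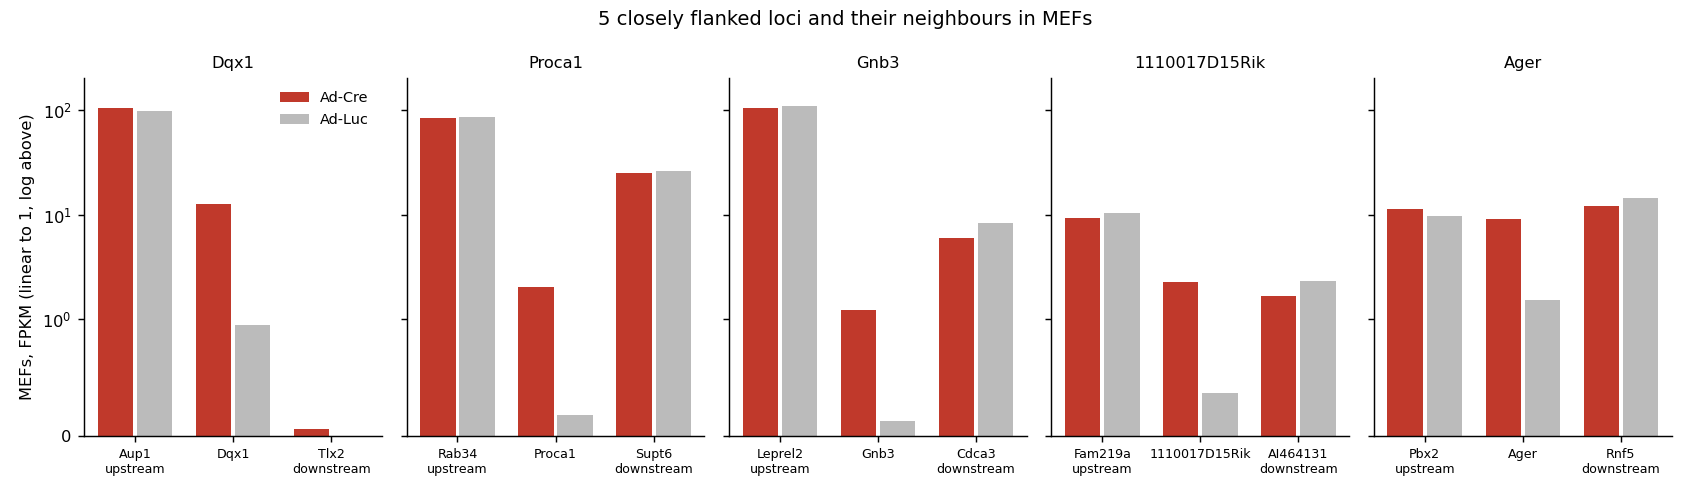
FPKM in Ad-Cre (red) and Ad-Luc (grey) MEFs for the 5 closely flanked loci of highest ratio among those with a same-strand upstream gene of at least 5 FPKM, each between its upstream and downstream neighbour; the y axis is linear to 1 FPKM and logarithmic above. The middle gene of each trio differs, for example 12.8 against 0.95 FPKM for Dqx1, while the upstream bars are nearly equal, as with 104.9 against 97.7 FPKM for Aup1.

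Most upstream neighbours did not move with the locus. Of the 42 same-strand loci that were higher in MEFs, 39 had an upstream gene at 1 FPKM or more, and 36 of these upstream genes lay within 1.5-fold, 2 were higher and 1 was lower, with a median log2 ratio of 0.15. In hepatocytes 20 of 22 such upstream genes lay within 1.5-fold and 2 were higher, and in ES cells all 9 lay within 1.5-fold. Beside the same-strand loci that were not higher in MEFs, 17 of 173 upstream genes were higher. The upstream genes had a median of 12.2 FPKM in Ad-Luc MEFs, against 1.53 FPKM for the loci themselves. Where the same-strand upstream gene had at least 10 times the level of the locus in Ad-Luc cells, 19 of 35 loci were higher in MEFs (54.3%), 13 of 30 were in hepatocytes and 5 of 31 were in ES cells, against 3 of 15, 5 of 13 and 2 of 21 for divergent genes under the same condition. Others of equal level, which are low here, gave 19.0% (MEFs), 19.3% (hepatocytes) and 5.76% (ES cells) for the same-strand set and 14.003%, 13.8% and 3.52% for the divergent set. This split was made after the values were seen, and it takes in loci of low Ad-Luc value, which favours a high ratio.

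Sign alone was shared little between neighbours. Closely flanked loci and their nearest neighbour lay on the same side of a ratio of 1 in 49.9% of 403 pairs (MEFs), 53.9% of 393 pairs (hepatocytes) and 50.4% of 409 pairs (ES cells), where the share of ratios above 1 on each side would give 52.3%, 50.7% and 54.3%.

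Noxo1, Nat14, Dqx1 and Ptprcap were higher past 1.5-fold in all 3 cell types. The same was not counted over other genes, so this count has no background. Noxo1 and Dqx1 in MEFs, Ptprcap in MEFs and hepatocytes, and Nat14 in ES cells reached 1 FPKM in Ad-Cre cells only. In those cells they had to lean that way. Ptprcap, a protein that associates with the phosphatase CD45 in lymphocytes, followed Coro1b, a coronin that binds actin, after 610 bp on chromosome 19 (4154646 to 4156710). It had 1.89 and 0.47 FPKM in Ad-Cre and Ad-Luc MEFs (2.01), 2.34 and 0.50 FPKM in hepatocytes (2.22) and 1.78 and 1.06 FPKM in ES cells (0.75), while Coro1b had 111.7 and 93.1 FPKM in MEFs (0.26). Nat14, an acetyltransferase family member, had 3.999 and 2.53 FPKM in Ad-Cre and Ad-Luc MEFs (0.66), 4.36 and 1.25 FPKM in hepatocytes (1.80) and 1.08 and 0.58 FPKM in ES cells (0.89). Its downstream neighbour Ssc5d went opposite ways, with 10.8 FPKM in Ad-Cre MEFs and 25.6 FPKM in Ad-Luc MEFs (-1.24) and 2.50 and 0.27 FPKM in Ad-Cre and Ad-Luc hepatocytes (3.24). Noxo1, an organizer subunit of NADPH oxidase, was the divergent locus among the 4. It had 1.58 and 0.83 FPKM in Ad-Cre and Ad-Luc MEFs (0.93), 1.98 and 1.04 FPKM in hepatocytes (0.94) and 2.35 and 1.17 FPKM in ES cells (1.00), and Gfer across the gap of 77 bp was within 1.5-fold in each (0.37, 0.13 and 0.27).

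Il18bp, a secreted inhibitor of interleukin 18, was lower in all 3, which was not counted over other genes either. It had 2.21 and 5.30 FPKM in Ad-Cre and Ad-Luc MEFs (-1.26), 4.74 and 8.31 FPKM in hepatocytes (-0.81) and 1.13 and 1.70 FPKM in ES cells (-0.59). Rnf121 upstream on the same strand and convergent Numa1 downstream were within 1.5-fold in every cell type.

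In all, 73 of the 533 loci were higher in at least 1 cell type, 53 of the 283 with a same-strand and 20 of the 246 with a divergent upstream gene. Lower were 36 loci, 20 and 16 of these. The same was not counted over other genes, so these counts have no background and are not read as a result. MEFs and hepatocytes shared 20 higher loci, which are 37.7% of those higher in MEFs and 60.6% of those higher in hepatocytes, and 16 of the 20 had a same-strand upstream gene. Among other short loci 101 were shared, 22.9% of those higher in MEFs and 33.9% of those higher in hepatocytes, and among all other autosomal protein-coding genes 185 were, 22.6% and 29.4%. These other genes were not matched for level, and the overlap was not counted again for loci at 1 FPKM in both groups. Matk, Ptprcap, Unc13d, Tnfrsf25 and Proca1 were below 1 FPKM in Ad-Luc MEFs and Ad-Luc hepatocytes, so they had to lean the same way in both cell types. Shared higher loci included Unc13d, a factor of cytotoxic granule release, with 1.76 and 0.33 FPKM in Ad-Cre and Ad-Luc MEFs (2.43) and 2.02 and 0.55 FPKM in hepatocytes (1.87), and Tnfrsf25, a death receptor, with 1.02 and 0.32 FPKM in MEFs (1.67) and 1.49 and 0.40 FPKM in hepatocytes (1.89). Aoc2, an amine oxidase, had 7.13 and 2.69 FPKM in Ad-Cre and Ad-Luc MEFs (1.41) and 11.96 and 6.63 FPKM in hepatocytes (0.85), and its same-strand downstream neighbour Aoc3, a related oxidase, was higher as well (1.73 and 2.81), whereas Psme3 upstream was near equal (0.21 and 0.02). Reads of such related neighbours may be split between them in the counting. Rhbdl1, a rhomboid protease, had 10.9 and 5.01 FPKM in MEFs (1.12) and 18.4 and 9.85 FPKM in hepatocytes (0.90). Across all closely flanked loci the log2 ratios of MEFs and hepatocytes had a Spearman rank correlation of 0.48 (n = 441 loci), against 0.30 over 9548 other genes. This correlation was 0.27 between MEFs and ES cells, against 0.29 over other genes, and 0.20 between hepatocytes and ES cells, against 0.09. Other short loci gave 0.33 (MEFs and hepatocytes), 0.25 (MEFs and ES cells) and 0.09 (hepatocytes and ES cells). None of these correlations was matched for level. These describe genes, which are no independent replicates.

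A pair of loci moved in opposite directions in 2 cell types. Dmpk, the myotonic dystrophy protein kinase, had 13.3 and 26.2 FPKM in Ad-Cre and Ad-Luc MEFs (-0.98) and 6.69 and 4.05 FPKM in ES cells (0.73), with Dmwd upstream near equal in both (0.07 and 0.08). Npb, a neuropeptide named here for its opposite directions after its values were seen, had 1.33 and 0.36 FPKM in MEFs (1.88) and 0.84 and 1.74 FPKM in hepatocytes (-1.04).

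Tssc4, Rac3 and Enkd1 were higher in hepatocytes alone. Tssc4, a factor of spliceosome assembly, had 103 FPKM in Ad-Cre hepatocytes and 45.7 FPKM in Ad-Luc hepatocytes (1.18), the highest level among the loci higher there, while its ratio in MEFs was within 1.5-fold (0.38). Cd81, a tetraspanin that ends 1437 bp upstream, had 778.1 and 876.3 FPKM in hepatocytes (-0.17). Rac3, a small GTPase, had 4.96 and 1.49 FPKM in Ad-Cre and Ad-Luc hepatocytes (1.74) and 11.9 and 13.4 FPKM in MEFs (-0.17). Gm14378, which follows the kinase gene Map2k7, had 9.73 and 5.26 FPKM in Ad-Cre and Ad-Luc hepatocytes (0.89) and was higher in MEFs too (0.87). Enkd1, with a divergent upstream gene, had 15.1 and 8.87 FPKM (0.76), and that neighbour, 4933405L10Rik, 2.30 and 0.51 FPKM (2.16).

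Doc2g, of the double C2 family of calcium sensors, had 7.37 and 3.54 FPKM in Ad-Cre and Ad-Luc MEFs (1.06), and follows Nudt8 on the same strand. The higher loci with divergent neighbours in MEFs included Il11, with 6.86 and 3.37 FPKM in Ad-Cre and Ad-Luc MEFs (1.02) and 1.51 and 0.45 FPKM in hepatocytes (1.76), and Apobr, a receptor for apolipoprotein B, with 8.75 and 4.57 FPKM (0.94) and 2.02 and 0.64 FPKM (1.66). Tmem190 across the gap from Il11 stayed under 0.5 FPKM in every group. Cln3, upstream of Apobr, was within 1.5-fold in both cell types (-0.23 and 0.27).

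Among loci with a same-strand upstream gene of at least 5 FPKM in Ad-Luc ES cells, the highest ratios were those of Rdh5 and 1700029I15Rik. Rdh5, a retinol dehydrogenase, had 1.87 and 0.70 FPKM in Ad-Cre and Ad-Luc ES cells (1.41). 1700029I15Rik had 1.39 and 0.56 FPKM (1.31). Their upstream genes, Bloc1s1 (0.09) and Pex16 (0.02), were near equal. Lrrc73, which follows Yipf3, had 1.57 and 0.74 FPKM in ES cells (1.09) and 2.81 and 1.57 FPKM in MEFs (0.84). Rdh5, 1700029I15Rik and Lrrc73 were named by a rule that asked for a same-strand upstream gene. They reached 1 FPKM in Ad-Cre ES cells only, so they had to lean that way there. Above 5 FPKM, only Zfp672 (5.73 and 3.11 FPKM, 0.88), Dmpk and Thap3 (20.1 and 13.3 FPKM, 0.60) were past 1.5-fold in ES cells. Next in order were Fau, Khk (ketohexokinase), Tmem208, Ufsp1 and Tap1 (a peptide transporter of antigen presentation), from 0.47 for Fau to 0.40 for Tap1. The lowest ratio at that level was that of Eif4a1, the helicase of translation initiation, with 804 FPKM in Ad-Cre and 1055 FPKM in Ad-Luc ES cells (-0.39).

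Among lower loci in MEFs, Mmp23, a membrane-bound matrix metalloproteinase, had 10.5 FPKM in Ad-Cre cells and 46.6 FPKM in Ad-Luc cells (-2.15). Its neighbours Mib2 and Cdk11b were near equal (0.18 and 0.04). Izumo4, of a family of sperm proteins, had 2.93 and 8.43 FPKM (-1.52), and Tlcd1 3.36 and 7.44 FPKM (-1.15) beside the convergent ribosomal gene Rpl23a, whose 1585 and 1474 FPKM were near equal (0.10). Manf, a secreted factor of the endoplasmic reticulum, had 36.2 and 65.2 FPKM (-0.85), and Mtmr11, of the myotubularin family, 6.31 and 11.2 FPKM (-0.83).

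Cfb, complement factor B, starts 87 bp after C2 and ends 1 bp from Nelfe in the class III region of chromosome 17. It had 16.3 and 34.5 FPKM in Ad-Cre and Ad-Luc MEFs (-1.08), and 721.6 and 1033 FPKM in hepatocytes (-0.52), within 1.5-fold. C2, the related complement protease, had 73.4 and 115 FPKM in hepatocytes (-0.65) and 15.1 and 18.9 FPKM in MEFs (-0.32).

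The lowest ratios in hepatocytes included 2 plasma proteins made by the liver. Lcat, which esterifies cholesterol on lipoproteins, had 12.1 FPKM in Ad-Cre and 30.5 FPKM in Ad-Luc hepatocytes (-1.34), while Slc12a4, whose end lies 187 bp upstream, had 91.0 and 71.2 FPKM (0.35). Vtn, vitronectin, had 104 and 244.6 FPKM (-1.23). Beside these, all 6 hepatocyte markers given above were lower in Ad-Cre hepatocytes, Ttr and Apoa1 by more than 2-fold. Cdca3 (17.9 and 32.7 FPKM, -0.87) and Aurka (11.5 and 20.5 FPKM, -0.83), both of cell division, Cpt1c (20.1 and 35.9 FPKM, -0.84), Rgs11 (3.76 and 6.61 FPKM, -0.81) and Elmo3 (5.14 and 8.71 FPKM, -0.76) followed. In MEFs and ES cells Aurka was near equal (-0.04 and 0.13).

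The 3 longest runs of adjacent closely flanked loci and 1 of the runs of 5 were named for their length after values were seen. The run of 7 on chromosome 17 (33916176 to 33955641) holds Zbtb22, Tapbp, Rgl2, H2-Ke2, Wdr46, B3galt4 and Rps18. In MEFs H2-Ke2 had 58.8 and 37.6 FPKM in Ad-Cre and Ad-Luc cells (0.64), and divergent Wdr46, which is needed for ribosome assembly, 22.5 and 13.1 FPKM (0.78). B3galt4 between Wdr46 and Rps18 had 1.00 and 2.49 FPKM (-1.31), and Tapbp, the tapasin of antigen loading, 176.5 and 247.3 FPKM (-0.49). Thus 3 adjacent loci of the 7 passed 1.5-fold in MEFs, not all in 1 direction. Over all genes at 1 FPKM, 8.43% were higher and 8.85% lower in MEFs, and 6.55% and 5.91% in hepatocytes. Counts in so few loci are not read as a result about runs. Neither hepatocytes nor ES cells had a locus of this run past 1.5-fold at 1 FPKM. On chromosome 8, Exoc3l was higher in MEFs (1.07) and hepatocytes (0.59) and Elmo3 lower in hepatocytes, with E2f4 between them within 1.5-fold (0.19 and 0.23). In the other 2 runs Vtn and Cpt1c passed in hepatocytes and Prmt1 in MEFs (0.59), each as the only locus of its run in that cell type, and no locus of the 4 runs passed in ES cells.

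**Figure D5:**
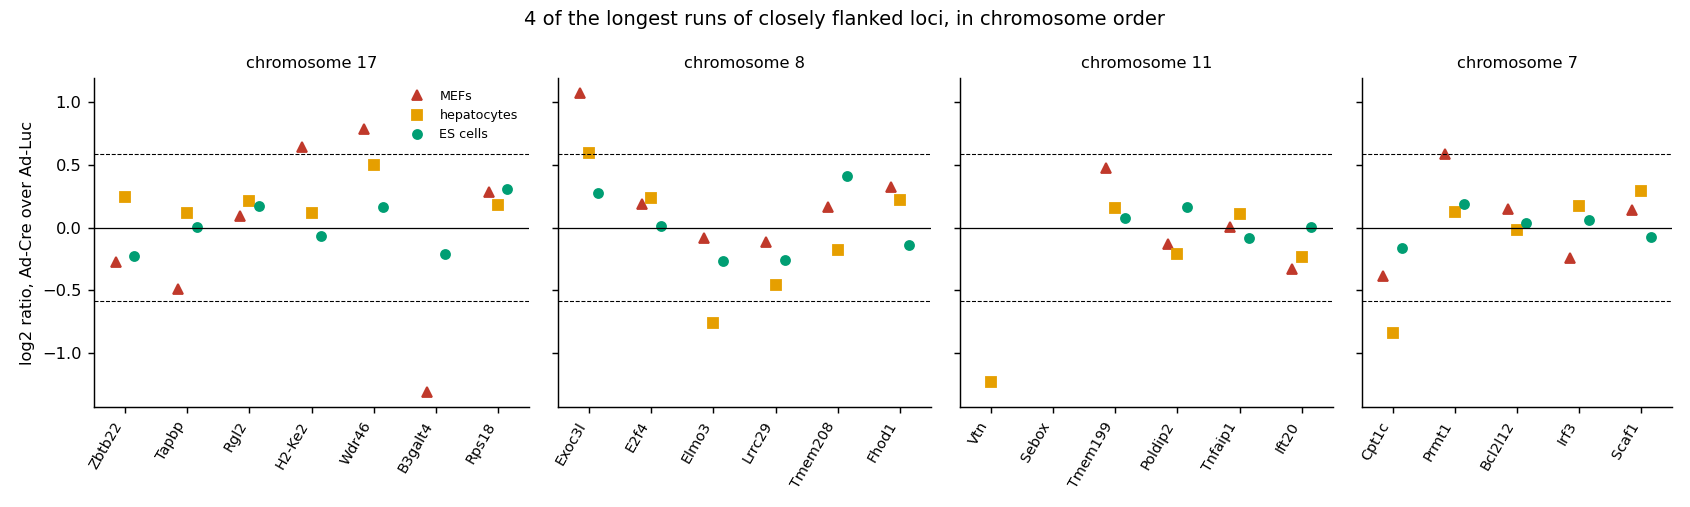
Log2 ratio of Ad-Cre over Ad-Luc (y axis) for the loci of the 3 longest runs and 1 run of 5 loci (chromosome 7) in their order along the chromosome, with a point per cell type where either group had at least 1 FPKM; dashed lines mark 1.5-fold. In the run of 7, H2-Ke2 (0.64), Wdr46 (0.78) and B3galt4 (-1.31) pass the lines side by side in MEFs, and in the other 3 runs no adjacent loci do in any cell type.

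In lists of basic cell functions few genes passed 1.5-fold, whether closely flanked or elsewhere on the autosomes. Closely flanked were 7 of 74 cytosolic and 11 of 76 mitochondrial ribosomal protein genes, 5 of 47 proteasome and 5 of 59 splicing factor genes. So were 3 of 27 RNA polymerase subunit, 3 of 37 transfer RNA synthetase, 1 of 30 cleavage, polyadenylation and Integrator and 0 of 28 Mediator genes. Over all autosomal protein-coding genes 533 of 19247 were. All 7 cytosolic ribosomal protein loci were within it in every cell type, with a median log2 ratio of 0.27 (MEFs), 0.03 (hepatocytes) and 0.21 (ES cells), beside 0.27, -0.06 and 0.21 for ribosomal protein genes elsewhere on the autosomes, of which 2 of 65 passed in MEFs and none in the other cell types. Rps28 had 1888 and 1762 FPKM in Ad-Cre and Ad-Luc MEFs (0.10) and Rps18 1384 and 1135 FPKM (0.29). All 11 mitochondrial ribosomal protein loci were within 1.5-fold as well, with medians of 0.15, -0.11 and 0.09, against 5 of 65 past it elsewhere in MEFs, and Mrps18b had 65.6 and 46.8 FPKM in MEFs. Of 5 proteasome loci Psmd8 alone passed, in MEFs, with 278.5 and 178.3 FPKM (0.64), and Psma7 had 177.6 and 127.7 FPKM, while 3 of 40 passed elsewhere. None of 5 splicing factor loci, 3 RNA polymerase subunit loci and 3 transfer RNA synthetase loci passed in any cell type, and in MEFs 5 of 53, 0 of 24 and 4 of 34 genes of these lists did elsewhere. Cpsf4, the only locus of the cleavage and polyadenylation list, had 18.7 and 12.6 FPKM in MEFs (0.57), just within 1.5-fold.

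Lists with passing loci were small. Of 4 MAP kinase cascade loci, Mapk12 was higher in MEFs (0.89) and hepatocytes (0.64) and Map3k10 in hepatocytes (0.65). Elsewhere 1 of 29 genes of this list passed in MEFs and 3 of 32 in hepatocytes, in either direction. Among 7 histone loci, 3 reached 1 FPKM in MEFs, where Hist1h2bg was lower (-0.97), and 4 in ES cells, where Hist2h2ac was higher (1.30). Of the histone genes elsewhere, 7 of 17 passed in MEFs (3 higher, 4 lower) and 10 of 30 in ES cells (4 higher, 6 lower). Near-identical histone copies share reads, and these values are uncertain. Rab4b was lower in MEFs (-0.83) as the only one of 9 membrane traffic loci (8 at 1 FPKM in MEFs), and 7 of 108 genes of that list passed elsewhere. None of 11 solute carrier loci passed, of which 7 reached 1 FPKM in MEFs, where 42 of 197 solute carrier genes elsewhere passed. The pattern for apolipoproteins found only Apobr, which is a receptor.

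Loci of the highest level were mostly near equal. Ftl1, the ferritin light chain, had 4813 FPKM in Ad-Cre MEFs and 3050 FPKM in Ad-Luc MEFs (0.66), 2139 and 2379 FPKM in hepatocytes (-0.15) and 5868 and 5922 FPKM in ES cells (-0.01). Gapdh had 949 and 815 FPKM in MEFs (0.22), 401 and 456 FPKM in hepatocytes (-0.18) and 1741 and 1583 FPKM in ES cells (0.14). Fau, which encodes a ribosomal protein fused to a ubiquitin-like protein, had 1902 and 1369 FPKM in ES cells (0.47).

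Promoters of the higher same-strand loci held fewer CG pairs. In MEFs 31 such loci with a promoter window had a median of 12 CG pairs, against 20 for 158 same-strand loci that were not higher. The medians were 10.5 (14 loci) and 19 (176 loci) in hepatocytes and 4 (6 loci) and 19 (187 loci) in ES cells. Other genes showed the same order, with 16 CG pairs in those higher in MEFs and 22 in those not higher, so this was not particular to closely flanked loci. The higher same-strand loci had a median of 1.53 FPKM in Ad-Luc MEFs and the others 17.7 FPKM.

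At the edges of the rule, Ly6g5b (wider gap 1992 bp) was just inside, with 1.69 and 0.95 FPKM in Ad-Cre and Ad-Luc MEFs, and Rps2 (2005 bp) just outside, with 1516 and 1191 FPKM. By span, Ncoa4 (19969 bp) was the longest locus inside, with 29.3 and 24.3 FPKM, and Avil (20286 bp) the shortest outside, with 3.32 and 0.74 FPKM.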

How the data were processed

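RNA-Seq values came from 3 tables, for MEFs, hepatocytes and ES cells (16 samples), in which the authors gave 1 pooled FPKM per gene and group. The column layout is that of Cuffdiff. The submitters' notes name CASAVA, TopHat2 (2.0.13), Cuffdiff (2.2.0) and the mm10 build, and the study's methods name stranded total RNA libraries with a spike-in, whose use in the FPKM is not given in the sources used here. Columns with the authors' own fold changes, test statistics, p-values and q-values were not used, nor were the tables cut down by them.

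Gaps were measured between deposited loci, printed from 1, which may extend past the main transcript. Strands came from GENCODE M21 (GRCm38). Ratios are Ad-Cre over Ad-Luc with no pseudocount, where either group had at least 1 FPKM. Others of equal level are autosomal protein-coding genes outside the set, weighted over 11 bins of mean level. Shares carry exact 95% intervals, which cover counting error only. Named were, per cell type, the 8 highest and 8 lowest ratios at 5 FPKM, the 6 highest levels and the 5 highest ratios after a same-strand gene of at least 5 FPKM, with loci past 1.5-fold in all cell types, neighbours and list members. Loci, lists and rules were chosen with earlier results of these data known. Code (Python 3.11.15, pandas 2.3.3, scipy 1.17.1) was tested on simulated data. Alternatives covered the fold, pseudocount, minimum level, gap limit, neighbours, centring and row status.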

Additional observations from a re-analysis of the deposited data

How the results depend on the processing

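Of 135 values under the alternatives, 113 lay within the 95% interval of the reported value with no change of direction, which for the differences is a wide interval, 21 lay outside it and 1 reversed. The share of closely flanked loci higher in Ad-Cre MEFs (11.5%) was 4.57% past 2-fold, 8.70% with a pseudocount of 1, 7.18% at a minimum of 5 FPKM, 16.7% with no minimum and 8.20% where the Ad-Luc value set the level. In hepatocytes (7.27%) it was 3.96% past 2-fold, 2.88% at 5 FPKM, 13.4% with no minimum and 4.56% by the Ad-Luc level. In ES cells (3.01%) it was 1.51% past 2-fold, 0.82% at 5 FPKM and 6.25% with no minimum. The share that was lower became 1.96% in MEFs and 0.66% in hepatocytes past 2-fold. In ES cells it was 0 past 2-fold, with either pseudocount, at 5 FPKM and at a gap limit of 1000 bp, and 2.27% with no minimum. The excess over others of equal level in MEFs (4.64 points, interval 1.87 to 7.92) was 2.38 points at a minimum of 5 FPKM (-0.01 to 5.48), 2.58 at a gap limit of 1000 bp (-0.95 to 7.17), 1.93 past 2-fold (0.22 to 4.26) and 1.93 against short loci alone (-0.84 to 5.21), the last an alternative chosen after the data were seen. In hepatocytes (2.25 points) it ranged from 0.031 points at 5 FPKM to 3.42 with no minimum, and its interval reached 0 in 6 of 12 alternatives. In ES cells (1.498 points) it ranged from 0.40 points at 5 FPKM (-0.25 to 1.96) to 2.03 and reached 0 in 4 of 12. Same-strand minus divergent loci, a comparison added after the data were seen, stood at 12.5 points in MEFs and was 6.76 at 5 FPKM, 7.03 past 2-fold and 8.01 by the Ad-Luc level, with no interval that reached 0. In hepatocytes (5.78 points) it was 3.52 at 5 FPKM (-0.21 to 7.25), 4.16 by the Ad-Luc level (-0.02 to 8.35), 3.04 at 1000 bp (-4.19 to 10.3) and 9.01 with no minimum. In ES cells (1.41 points) every interval reached 0, and it was 0.27 past 2-fold and turned to -0.19 points with a pseudocount of 1. Where no other reason is given, the cause was not tested. No paired analysis was possible because each table gives 1 pooled value per group, and for the same reason no replicate could be left out. Depth is unknown.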
